A study of Mus musculus with 17 samples.

Results

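The clustered protocadherins were examined by RNA-seq in cortical microvessels of the mouse, with 17 libraries in all. The family was picked for description with earlier results of these data known, and its members were then taken by gene symbol, as the alpha (Pcdha and Pcdhac), beta (Pcdhb) and gamma (Pcdhga, Pcdhgb and Pcdhgc) genes, which gave 58 of the 42687 genes in the table. The alpha cluster held 14 genes, the beta cluster 22 and the gamma cluster 22, the last made of 12 A-type, 7 B-type and 3 C-type genes. These 58 genes carry 57 symbols, because Pcdha11 was attached to 2 identifiers, ENSMUSG00000007440 and ENSMUSG00000102206, which are kept apart here.

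The mice were wild type (WT) or APP/PS1 (APP in the sample labels), a transgenic model that develops amyloid plaques, and were 10 to 11 months old. They had received intraperitoneal injections of 10 mg/kg of a peptide every 2 days over 2 weeks, either gp91-ds-tat, which blocks the NADPH oxidase NOX2, or its control sgp91-ds-tat, so all 4 groups were peptide-treated. The label NOX2 was taken as the inhibitor and the label SC as the control peptide. WT SC, WT NOX2 and APP NOX2 had 5 libraries each and APP SC had 2, which limits every comparison that uses APP SC. The labels give neither the transgenic line, its promoter nor the sex of the mice, and do not say whether each library is 1 animal, so p-values measure the spread between libraries, which may be technical in part. The protocol also speaks of surgery and of ipsilateral cortex without saying what was done, and this is shared by all groups.

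Clustered protocadherins are homophilic cell adhesion proteins of the cadherin superfamily, known best from neurons. Each alpha and gamma gene has its own promoter and a large variable exon for the extracellular part, which is spliced to constant exons that the whole cluster shares, whereas beta genes are single-exon genes with no shared constant part. In neurons the alternate alpha, beta and gamma A and B isoforms are chosen largely at random in each cell through CTCF and cohesin, and the combination gives a cell its surface identity for self-recognition and dendrite self-avoidance. C-type isoforms are chosen more uniformly, Pcdhgc3 is also made by glia, Pcdhac2 is prominent in serotonergic neurons, where it supports axon tiling, and Pcdhgc4 has a role in the survival of interneurons. Beta isoforms are the least studied of the family.

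The alpha and gamma counts came from variable exons. Reads on exons shared between genes had been left out of the count table: of 151 annotated genes with no exon base of their own, 8 had any count (5.298%), against 72.86% of 41899 genes with at least 100 own bases. The read-through gene models Gm42416, Gm37013, Gm37388 and Gm38182, made only of exons shared with cluster members, all had 0 counts. Strands had been kept apart, since Pcdhga10, whose 2613 own bases all lie opposite exons of another gene, had 8725 counts over the libraries. Levels of different genes are therefore compared as CPM (counts scaled to the TMM-normalized library size) per kb of own exon bases, meaning exon bases not shared with another gene on the same strand. Members are paralogs with similar stretches, and how reads matching more than 1 of them were treated is not given in the sources used here, so that levels of single isoforms carry this uncertainty.

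All 58 members had counts, and 56 had at least 3 counts in every library and passed the filter on low counts. The other two were Pcdhb1, with 2 to 10 counts per library, and Pcdhgb8, with 0 to 5 counts, which is annotated as a polymorphic pseudogene while the other 57 are protein coding. The whole family took 0.16% ± 0.010 (SD, n = 17) of all counts, or 1475 to 1762 CPM in a library. Of these family counts, 59.7% ± 1.51 (SD, n = 17) were gamma, 29.3% ± 1.53 beta and 11.0% ± 0.82 alpha. The order gamma, beta, alpha therefore held in every library, with gamma between 56.4% and 61.9%.

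Gamma isoforms also led per length. The median member stood at 14.6 CPM per kb among gamma A genes, 11.4 among gamma B genes, 4.68 among beta genes and 3.78 among the 12 alpha genes that are not C-type. Within libraries, the gamma A median was above the gamma B median in 17 of 17, both gamma medians were above the beta median in 17 of 17, and the beta median was above the alpha median in 15 of 17. The step from beta to alpha depended on the length used: per kb of all exon bases the medians were 4.52 for beta and 1.56 for alpha, and every library median of beta (3.99 or more) was above every one of alpha (2.24 or less).

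The 5 C-type genes spanned from the top of the family to well below its middle. Pcdhgc5 was the highest member at 31.7 CPM per kb ± 5.16 (SD, n = 17), followed by Pcdhgc3 at 28.0 ± 3.30 and Pcdhac2 at 19.9 ± 2.97. Pcdhgc5 was above Pcdhgc3 in 14 of 17 libraries and Pcdhgc3 above Pcdhac2 in 17 of 17. Pcdhgc4 stood at 6.49 CPM per kb ± 0.67 and Pcdhac1 at 4.07 ± 0.68, ranks 27 and 41 of the 58. The next gene after the leading C-types was Pcdhgb6, at 18.6 CPM per kb ± 1.45, which Pcdhac2 exceeded in 12 of 17 libraries, so these neighbours were not apart beyond their spread. C-type genes made up a large part of the small alpha cluster: Pcdhac2 alone took 33.7% ± 2.96 (SD, n = 17) of alpha counts and Pcdhac1 5.85% ± 0.70. In the gamma cluster Pcdhgc5 took 15.1% ± 1.84, Pcdhgc3 9.79% ± 0.94 and Pcdhgc4 2.34% ± 0.23.

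**Figure D1:**
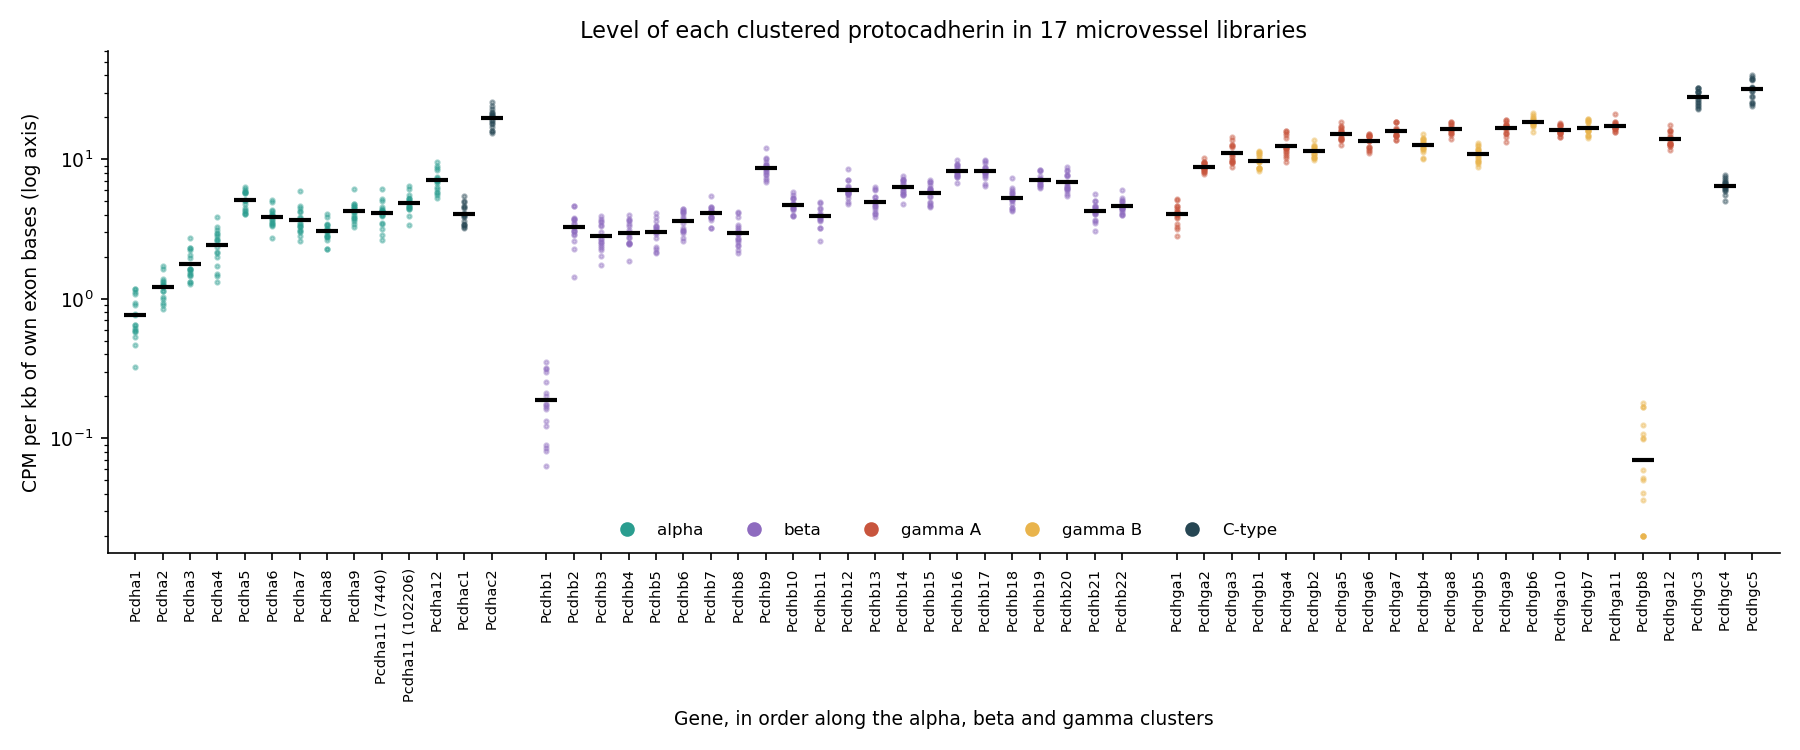
Level of each of the 58 members in CPM per kb of own exon bases (log axis), with genes in their order along each cluster; dots are the 17 libraries, bars their mean, the 2 genes named Pcdha11 carry the last digits of their identifiers, and the 5 libraries with 0 counts of Pcdhgb8 are drawn at 0.02. Levels climb from Pcdha1 and Pcdhb1 toward later genes, gamma A and B genes lie above all beta genes by mean except Pcdhga1 and Pcdhgb8, and Pcdhgc5, Pcdhgc3 and Pcdhac2 stand highest.

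Along each cluster, later genes tended to be higher. In the alpha cluster the level went from 0.76 CPM per kb for Pcdha1 to 7.07 for Pcdha12, the last gene before the C-types, and Pcdha12 was above Pcdha1 in 17 of 17 libraries. Spearman's rho between order and level was 0.82 over the 12 alpha genes without C-types and lay between 0.69 and 0.92 in single libraries. It was 0.69 over the 22 beta genes, which ranged from 0.19 CPM per kb for Pcdhb1 to 8.72 for Pcdhb9. Pcdhb9, in the middle of its cluster, was followed by Pcdhb16 at 8.25 and Pcdhb17 at 8.21, and it was above Pcdhb16 in 11 of 17 libraries only. Over the 19 gamma A and B genes rho was 0.54, and 0.79 without Pcdhgb8, whose 0.07 CPM per kb lies near the end of the cluster. Pcdhga1 began the gamma cluster at 4.07 CPM per kb, and Pcdhga11, at 17.3, was the highest A-type gene. These coefficients describe genes within the same libraries, which share reads, depth and sequence similarity and are not independent. With all exon bases as the length, rho over all members of a cluster was 0.82 for alpha, 0.66 for beta and 0.53 for gamma, against 0.81, 0.69 and 0.49 with own bases.

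The spread of members between libraries was read from the fit over all genes. The biological coefficient of variation fitted by edgeR, the relative spread beyond counting error, had a median of 0.142 over the 56 tested members and 0.162 over all 18753 genes tested. It lay below the trend for genes of equal abundance for 47 of 56 members (83.9%), against 69.3% of all genes. By cluster this was so for 10 of 14 alpha, 17 of 21 beta and 20 of 21 gamma genes. Pcdhga8 had the smallest value, 0.086, and Pcdha1, at 1.90 CPM ± 0.65 (SD, n = 17), had the largest, 0.30. Of the 952 deviations of a member in a library from its own mean, 98.0% were within 0.5 on the log2 scale.

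**Figure D2:**
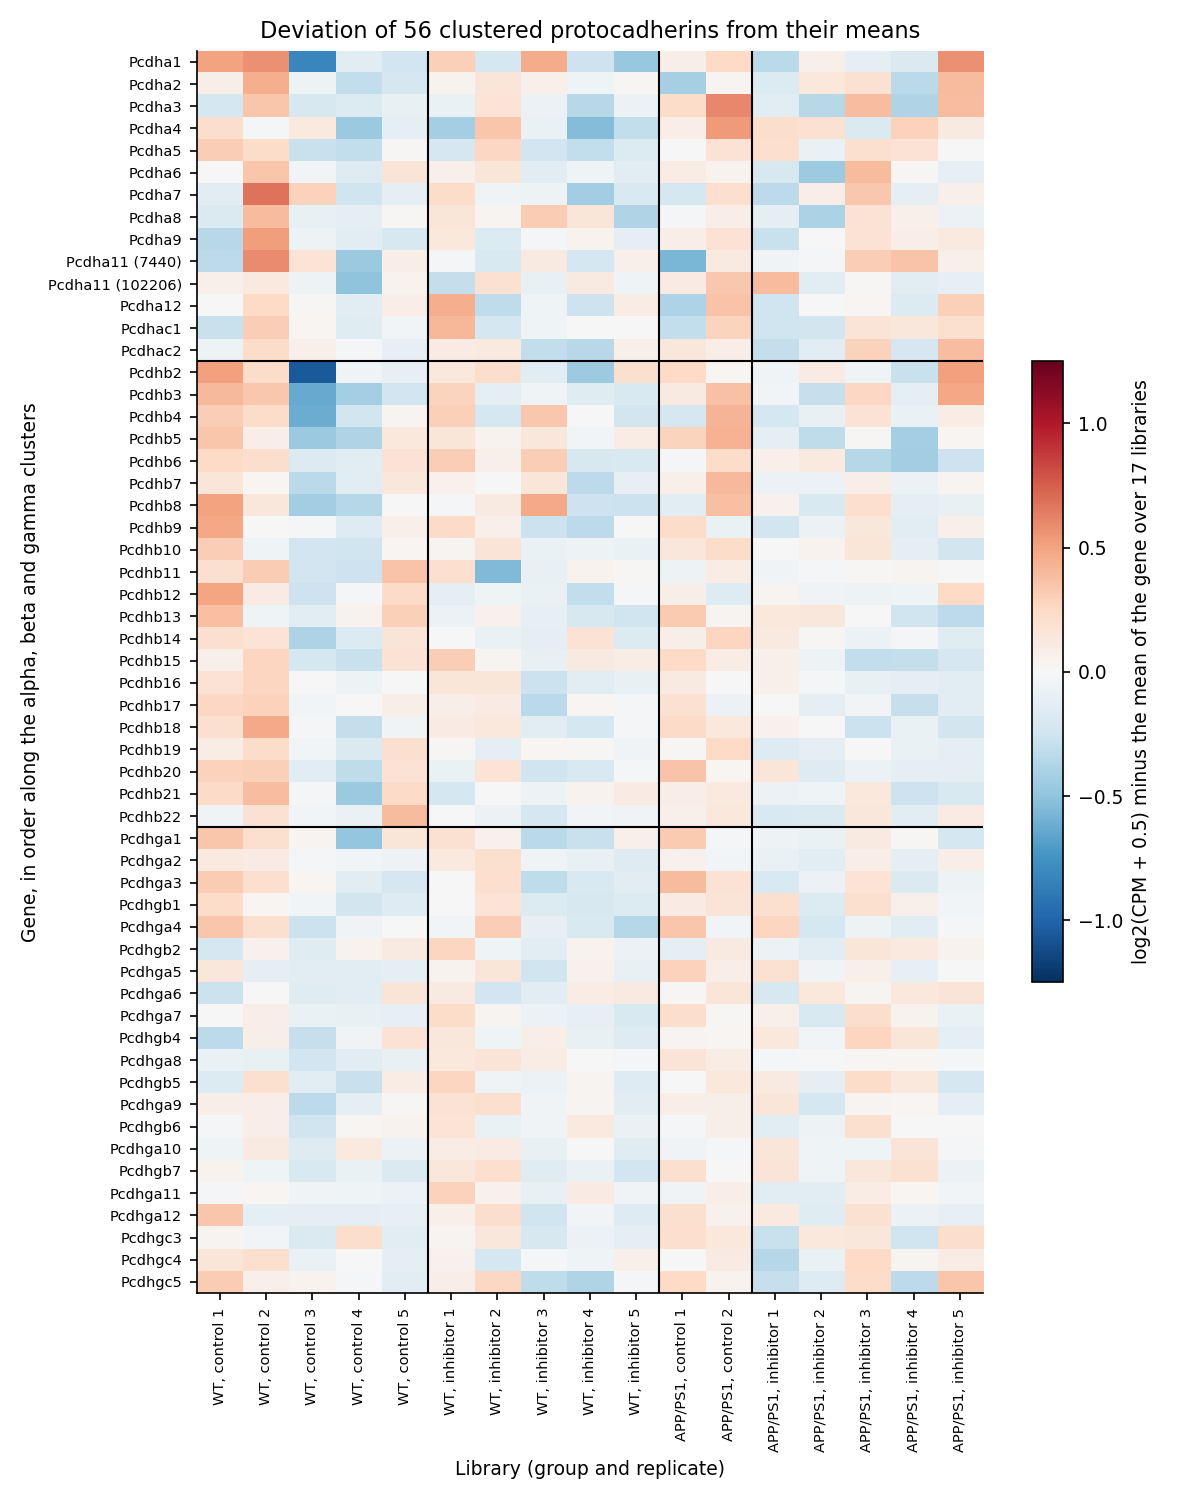
Deviation of log2(CPM + 0.5) from the mean of the gene over 17 libraries for the 56 tested members (rows, in cluster order) in each library (columns, by group); red is higher and blue lower. The strongest deviations belong to low genes, such as Pcdhb2 at -1.05 in WT SC replicate 3 and Pcdha7 at 0.68 in WT SC replicate 2, and no group forms a block of its own colour across a cluster.

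Depth, genotype labels and cell type markers were checked before the groups were compared. Total counts ran from 7316503 to 17862965 per library. The genotype labels were checked on App and Prnp, whose log2 changes in APP/PS1 were 0.73 and 1.33 (edgeR quasi-likelihood test, adjusted p = 0.00631 and 3.8e-06). Markers of the labelled cells were present, with 8 of 8 endothelial, 5 of 5 pericyte and 6 of 6 astrocyte markers passing the filter, and summed endothelial markers ran from 2228 to 4167 CPM. Neuron markers, 9 of 9 past the filter, were present as well, at 3095 to 4997 CPM, and the summed choroid plexus markers ran from 29.4 to 8097 CPM. Summed neuron markers overlapped between all groups: 3565 to 4997 CPM in WT SC, 3095 to 4940 in WT NOX2, 3867 and 4748 in APP SC, and 3289 to 4661 in APP NOX2. Single markers need not follow their sum. Stmn2 stood at 96.4 and 113 CPM in APP SC, above the 74.1 to 94.1 of WT SC, while Slc17a7, at 696 and 698 against 648 to 940, overlapped. Summed oligodendrocyte markers overlapped, at 1861 and 2473 CPM in APP SC against 1526 to 1969 in WT SC. Summed oligodendrocyte precursor markers overlapped as well, at 286 and 323 CPM against 258 to 328. For astrocyte and microglia markers, the APP SC libraries lay above all WT SC libraries. Summed astrocyte markers were 3708 and 4709 CPM in APP SC, above the 3204 to 3570 of WT SC, with 2952 to 4364 in WT NOX2 and 3053 to 5092 in APP NOX2. Summed microglia markers were 295 and 367 CPM in APP SC, above the 175 to 216 of WT SC and the 169 to 237 of WT NOX2, with 201 to 382 in APP NOX2. The source cells of the protocadherin counts were not separated, and fewer cells of a type cannot be told apart from less RNA per cell in such bulk libraries.

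By cluster, the 4 groups overlapped for alpha and gamma. Summed alpha levels averaged 179 CPM ± 24.7 (SD, n = 5) in WT SC, 172 ± 13.6 (n = 5) in WT NOX2, 188 ± 19.9 (n = 2) in APP SC and 180.1 ± 22.0 (n = 5) in APP NOX2. Gamma averaged 950.2 CPM ± 55.5, 954 ± 83.9, 1035 ± 35.0 and 969 ± 62.5 in the same order. The beta sums were 560.1, 549, 418, 418 and 521 CPM in WT SC, 498, 475, 444, 448 and 452 in WT NOX2, 515 and 521 in APP SC, and 468, 452, 468, 428 and 452 in APP NOX2. Both APP SC libraries were thus above all 5 APP NOX2 and all 5 WT NOX2 libraries for beta. WT SC held both the highest and the lowest libraries of all and overlapped every other group. In the same library order, summed choroid plexus markers were 29.4, 165, 4208, 8097 and 2157 CPM in WT SC. In WT NOX2 they were 2992, 233, 237, 3647 and 4682. In APP SC they were 1913 and 196, and in APP NOX2 3066, 2150, 451, 4722 and 596. Within WT SC, replicates 1 and 2 were lowest for these markers and highest for beta. Within WT NOX2, replicate 3, at 237 CPM, had the lowest beta sum. Their part in the cluster sums was not tested. A sum over members was not tested.

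**Figure D3:**
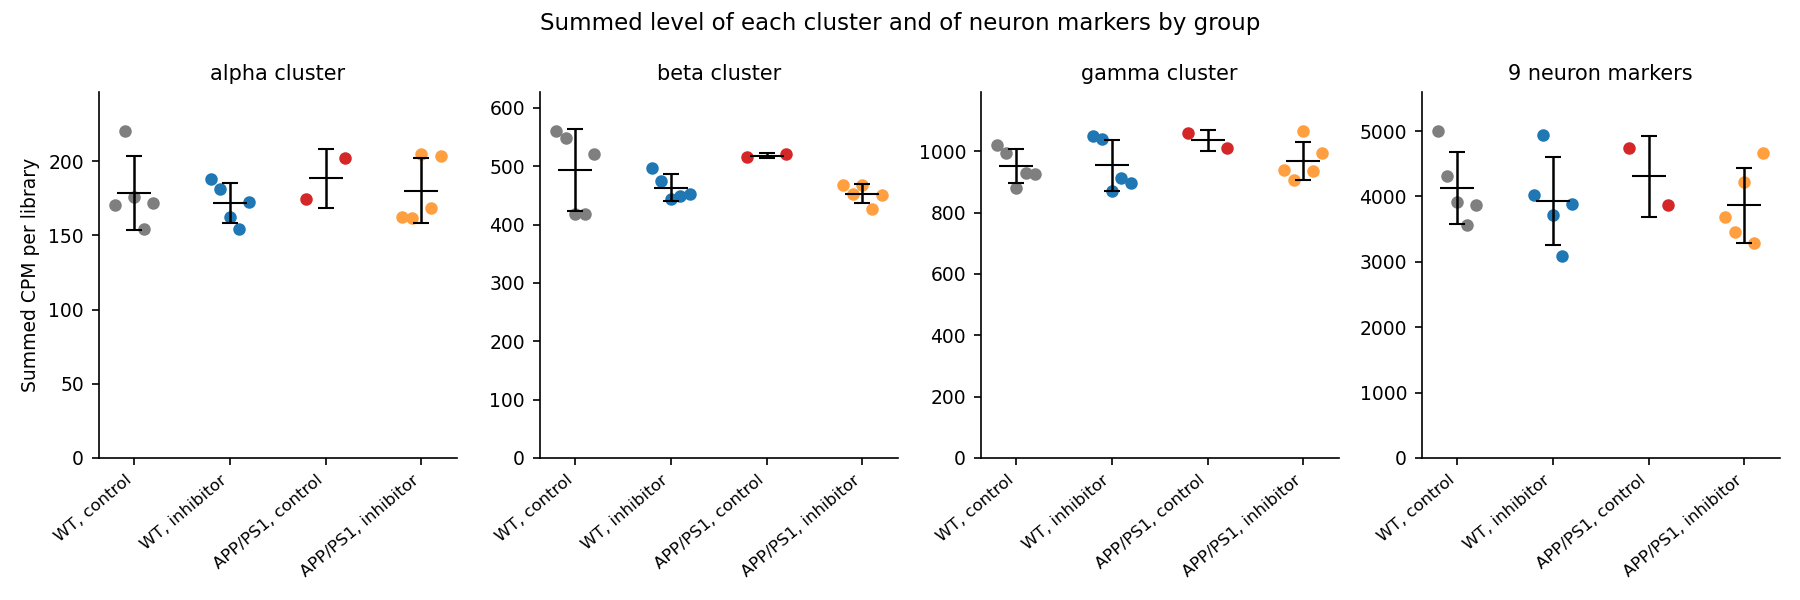
Summed CPM of the alpha, beta and gamma clusters and of 9 neuron markers in each library by group; dots are libraries, the bar and whiskers the mean and SD (n = 5, 5, 2 and 5). Alpha, gamma and neuron marker sums overlap between all groups. The beta sums of APP SC (515 and 521) lie above those of APP NOX2 (428 to 468) and WT NOX2 (444 to 498).

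The first question was whether any isoform differed by genotype. Over both peptides, 0 of 56 members passed (edgeR quasi-likelihood test, Benjamini-Hochberg adjusted p under 0.05), against 0.587% of all genes tested. DESeq2 also called 0 members, and 0 had an unadjusted p under 0.05 in edgeR, where 6.38% of all genes did. The estimates of 38 members were higher and of 18 lower in APP/PS1, with a median log2 change of 0.03, against 0.002 over all genes. This median ran from 0.02 (without APP NOX2 replicate 5 or WT NOX2 replicate 4) to 0.05 (without WT SC replicate 1 or 2) and 0.07 (without WT NOX2 replicate 1). The 95% intervals of all 56 members lay within a 2-fold change in either direction and those of 53 within 1.5-fold, so larger genotype differences lie outside what these intervals allow. The widest reach was that of Pcdha4.

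Pcdha4, an alternate alpha isoform with 494 own bases, had the smallest p for genotype. It was low throughout, at 1.45, 1.15, 1.32, 0.715 and 1.05 CPM in WT SC, 0.748, 1.62, 1.08, 0.65 and 0.855 in WT NOX2, 1.27 and 1.91 in APP SC, and 1.45, 1.40, 0.977, 1.54 and 1.31 in APP NOX2. The APP/PS1 libraries were mostly in the upper part of the range, but WT NOX2 replicate 2 was above all of them except 1. Its log2 change was 0.42 ± 0.21 (SE, 95% interval -0.02 to 0.86), which did not pass (edgeR adjusted p = 0.794).

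Within each peptide the outcome was the same. With the control peptide, 0 of 56 members passed in edgeR, against 0.0533% of all genes, and DESeq2 called 0. At an unadjusted p under 0.05 there were 3 higher members, Pcdhga8, Pcdhga5 and Pcdha3, and 0 lower, which is 5.36% of members against 3.97% of all genes. The median log2 change was 0.10, with 43 of 56 members and 19 of 21 gamma genes estimated higher, against 51.2% of all genes. It was 0.05 without WT SC replicate 3 (35 of 56 higher) or WT SC replicate 4 (40 of 56 higher). Without WT SC replicate 1 (43 of 56 higher) or WT SC replicate 2 (50 of 56 higher) it was 0.14. In the same comparison the summed astrocyte and microglia markers of APP SC lay wholly above those of WT SC, as given above. Of the 9 neuron markers, 6 were estimated higher and 3 lower, with a median of 0.08. For 1 of the 9, estimated higher, the unadjusted edgeR p was under 0.05 (11.1%, against 3.97% of all genes). The part of these markers in the estimates was not tested. The intervals of 54 members lay within 2-fold. With the inhibitor, 0 of 56 passed in edgeR, against 0.181% of all genes, DESeq2 called 0, and 0 had an unadjusted p under 0.05, where 3.38% of all genes did. The median was 0.02 there, and its smallest p belonged to Pcdhb15, at -0.26 ± 0.12 (SE, edgeR adjusted p = 1.00). Both comparisons of genotype use different libraries, and their difference is the interaction tested further on.

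Pcdhga8, a gamma A isoform, was named for the smallest p among members. This held for genotype with control peptide, for the inhibitor in WT and for the interaction. Its level was 38.9, 38.7, 34.7, 37.6 and 38.7 CPM in WT SC, 45.3, 46.0, 43.9, 41.5 and 40.7 in WT NOX2, 46.1 and 43.8 in APP SC, and 40.8, 41.1, 41.6, 41.9 and 40.8 in APP NOX2. All 5 WT SC libraries were below all 12 libraries of the other groups, and the share of all genes so placed was not counted. APP SC was above APP NOX2 without overlap, as for 1.75% of all genes. In APP SC against WT SC the log2 change was 0.25 ± 0.089 (SE, edgeR adjusted p = 0.954), and no other member lay wholly above WT SC there, where 3.6% of all genes did so. In WT NOX2 against WT SC it was 0.20 ± 0.068 (SE, edgeR adjusted p = 1.00), again with no other member wholly higher and 0.133% of all genes so placed. The interaction was -0.33 ± 0.112 (SE, 95% interval -0.56 to -0.09, edgeR adjusted p = 1.00). None of these passed, and the WT SC libraries enter all 3 values, so they are not separate observations.

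The second question was whether isoforms responded to the inhibitor. Over both genotypes, 0 of 56 members passed in edgeR, as did 0.0% of all genes, and DESeq2 called 0 members. Of the members, 0 higher and 3 lower had an unadjusted p under 0.05, namely Pcdhb13, Pcdhga3 and Pcdhb19 (5.36% of members, against 2.11% of all genes). The median log2 change was -0.07, with estimates lower for 43 of 56 members, against 0.004 and 48.6% over all genes. This median was -0.05 without APP SC replicate 2 or WT SC replicate 1, -0.04 without WT SC replicate 2, and -0.11 without WT SC replicate 3 or 4. In the beta cluster 21 of 21 estimates were lower, between -0.24 and -0.02 with a median of -0.11. In the alpha cluster 11 of 14 were lower with a median of -0.07, and in the gamma cluster 11 of 21 with a median of -0.02. These are counts of small, untested directions among genes measured in the same libraries, and without WT SC replicate 1 the beta count was 17 of 21 with a median of -0.09. Of the 9 neuron markers, 6 were estimated lower with a median of -0.03, and their part in the beta estimates was not tested. The intervals of all 56 members lay within 2-fold and those of 54 within 1.5-fold.

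Pcdhb13, a beta isoform, had the smallest p of this comparison. It stood at 23.5, 17.4, 16.3, 18.7 and 22.3 CPM in WT SC, 17.1, 18.7, 16.8, 15.6 and 15.2 in WT NOX2, 22.8 and 18.5 in APP SC, and 19.8, 20.0, 18.0, 15.1 and 14.3 in APP NOX2. The highest libraries were control-peptide libraries and the lowest inhibitor libraries, with wide overlap between. Its log2 change was -0.24 ± 0.098 (SE, 95% interval -0.44 to -0.04, edgeR adjusted p = 1.00).

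In WT alone, 0 of 56 members passed in edgeR for the inhibitor, as did 0.0% of all genes, DESeq2 called 0, and Pcdhga8 was the only member with an unadjusted p under 0.05 (1.79%, against 1.34% of all genes). The median log2 change was -0.02, against 0.001 over all genes. Estimates were lower for 14 of 21 beta, 10 of 14 alpha and 9 of 21 gamma genes, against 49.4% of all genes. The beta count depended on single libraries. It was 11 of 21 without WT SC replicate 2 and 12 of 21 without WT SC replicate 1, with a median of -0.01 in both. Without WT SC replicate 3 it was 19 of 21 with a median of -0.13. In APP/PS1, 0 of 56 passed, as did 0.0% of all genes, and DESeq2 called 0. Here 4 lower members, Pcdhb5, Pcdhga3, Pcdhb15 and Pcdhb19, and 0 higher had an unadjusted p under 0.05 (7.14%, against 1.80% of all genes). Lower estimates were found for 47 of 56 members, with a median of -0.13, against 49.8% and 0.001 over all genes. They were also found for 20 of 21 beta genes, with a median of -0.19. In the gamma cluster 18 of 21 were lower with a median of -0.08. Of the 9 neuron markers, 7 were estimated lower with a median of -0.09, and their part was not tested. The comparison rests on the 2 APP SC libraries, which are the reference here and the group set against WT SC in the genotype comparison with control peptide, so that the higher estimates there and the lower estimates here share those libraries. Intervals were wider, with 55 members within 2-fold and 37 within 1.5-fold.

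In APP/PS1, 6 members had every APP NOX2 library below both APP SC libraries: Pcdhb5, Pcdhb15, Pcdhb18, Pcdhb19, Pcdhga3 and Pcdhga8, of which Pcdhb18 and Pcdhga3 were named after their values were seen. With so few libraries such a separation was found for 1.75% of all genes. Pcdhb5, a beta isoform, had the smallest p of the 6. Its level was 13.6, 11.2, 7.52, 8.04 and 11.6 CPM in WT SC, 11.8, 10.9, 11.7, 10.3 and 11.3 in WT NOX2, 12.9 and 14.5 in APP SC, and 9.67, 8.34, 10.6, 7.71 and 10.7 in APP NOX2. APP SC was thus high and APP NOX2 low, but WT SC spanned nearly the whole range of both. The log2 change was -0.54 ± 0.190 (SE, 95% interval -0.93 to -0.14, edgeR adjusted p = 1.00).

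Pcdhb15, another beta isoform, stood at 16.7, 19.4, 13.7, 13.1 and 18.2 CPM in WT SC, 19.9, 16.5, 15.0, 17.4 and 17.1 in WT NOX2, 19.2 and 17.1 in APP SC, and 16.8, 15.3, 12.8, 13.0 and 13.8 in APP NOX2. Here too WT SC covered most of the range of the other groups. In APP/PS1 the inhibitor estimate was -0.34 ± 0.158 (SE, edgeR adjusted p = 1.00). Pcdhb19, one of the 3 beta genes with the highest CPM, had 54.0, 59.6, 49.7, 44.7 and 58.5 CPM in WT SC, 51.1, 47.1, 51.5, 51.3 and 49.3 in WT NOX2, 51.3 and 60.3 in APP SC, and 45.5, 46.7, 50.8, 48.0 and 46.6 in APP NOX2. The inhibitor libraries of either genotype were close together, whereas WT SC spread widely. Its inhibitor estimate was -0.23 ± 0.109 (SE) in APP/PS1 mice, against -0.09 ± 0.084 (SE) for WT (edgeR adjusted p = 1.00 in both).

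Whether the inhibitor acted differently by genotype was asked by the interaction, the inhibitor change in APP/PS1 minus that in WT. It gave 0 of 56 members in edgeR, as it did 0.0% of all genes, and 0 in DESeq2. The unadjusted p was under 0.05 for 2 members, Pcdhga8 and Pcdhb5, both negative (3.57%, against 0.843% of all genes). Pcdhb5 had an interaction of -0.63 ± 0.242 (SE, 95% interval -1.14 to -0.13, edgeR adjusted p = 1.00). The median over members was -0.09, with 44 of 56 negative, against -0.003 and 50.7% over all genes. It was -0.045 without WT SC replicate 4 (36 of 56 negative), and -0.13 without WT SC replicate 1 (43 of 56) or 2 (47 of 56). Intervals of 52 members lay within 2-fold, so this is the comparison in which a difference of that size was least bounded.

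**Figure D4:**
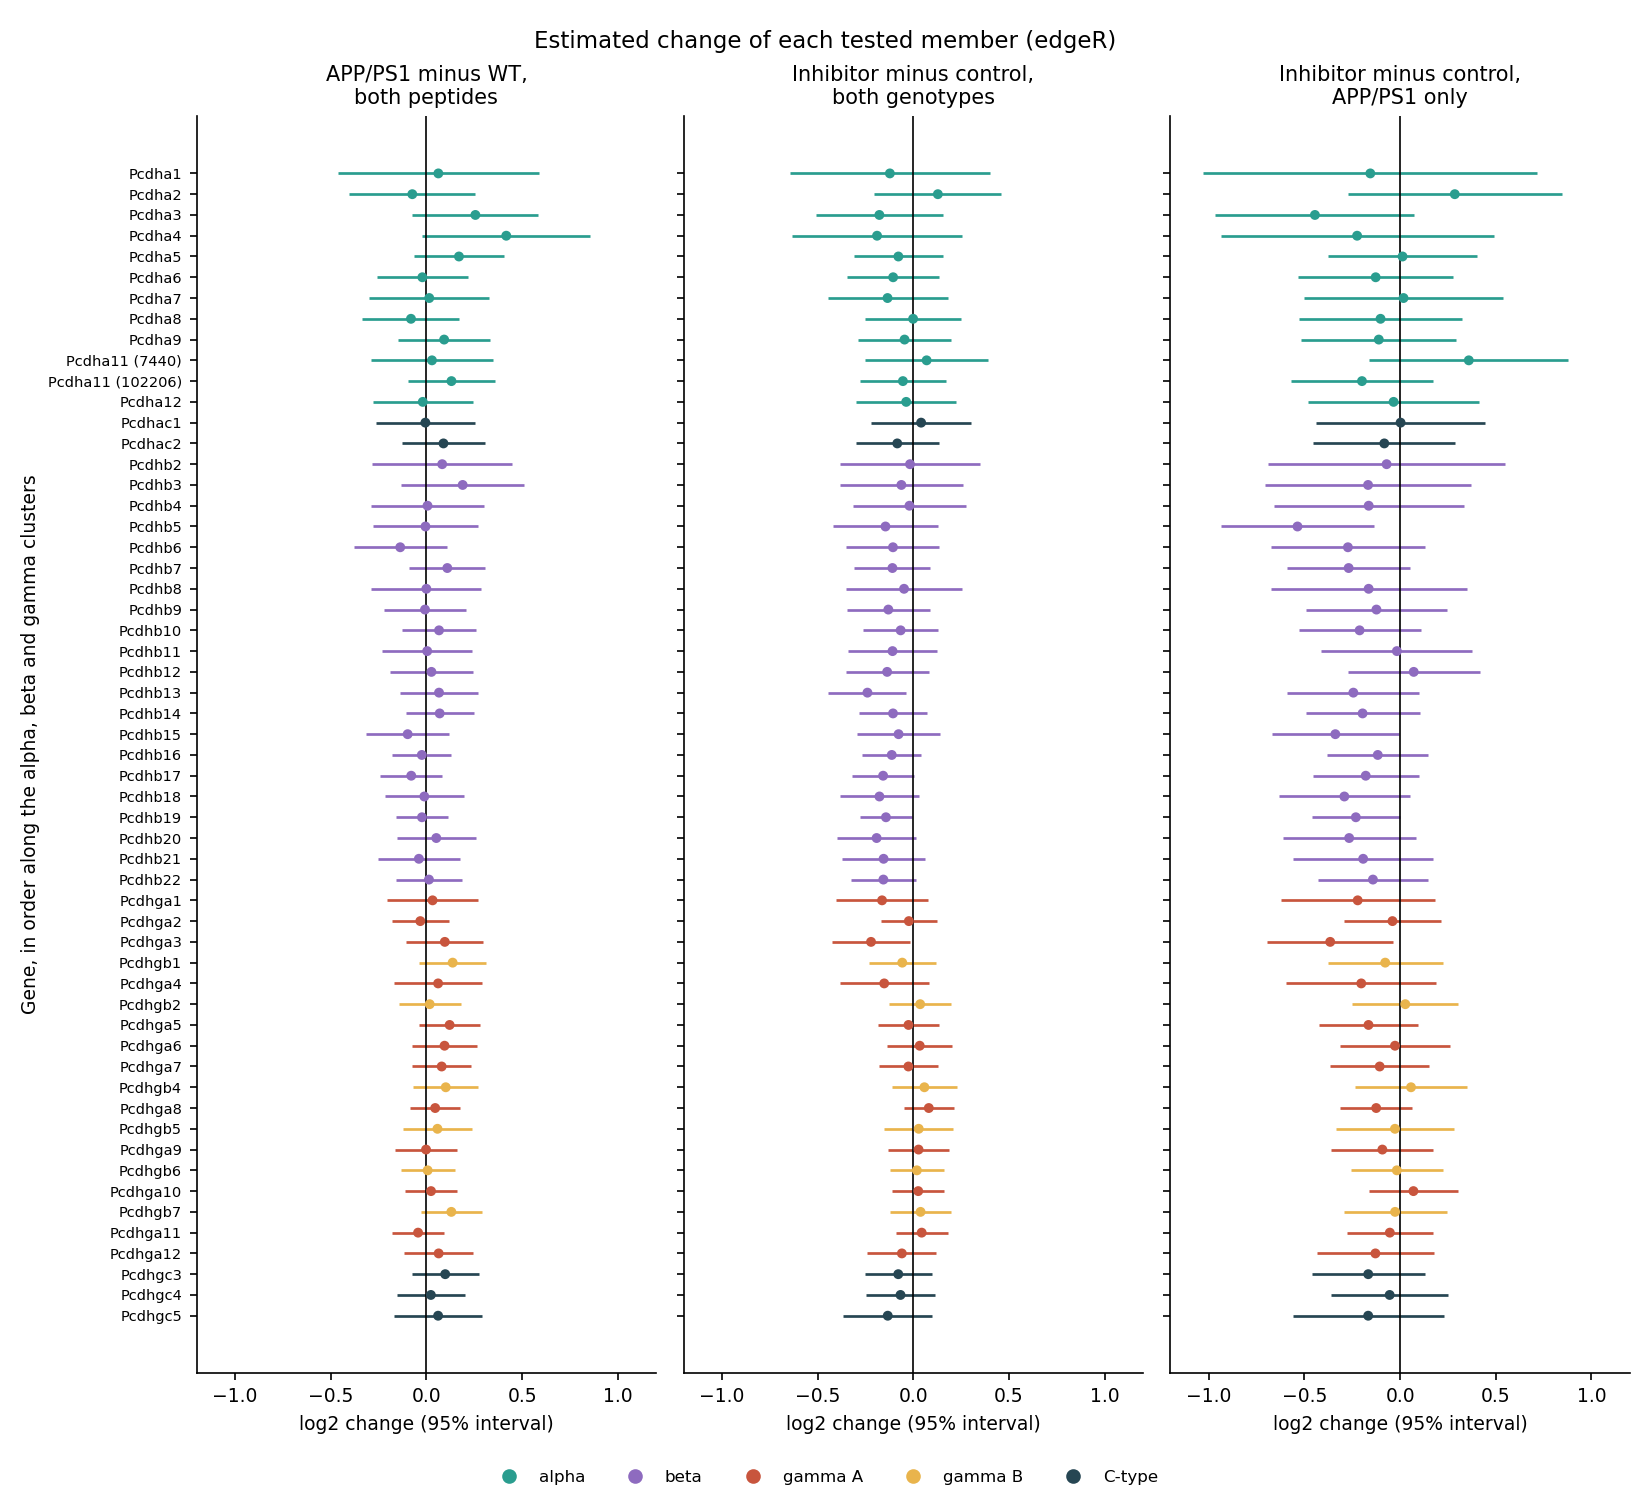
Estimated log2 change with its 95% interval for the 56 tested members, in cluster order, for genotype over both peptides, inhibitor over both genotypes and inhibitor in APP/PS1 (edgeR). Points are coloured by class; beta points lie mostly left of 0 for the inhibitor, at medians of -0.11 and -0.19, and 0 members pass after adjustment in any panel.

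The C-type genes, which include the 3 highest members per kb of own exon bases, overlapped between groups. Pcdhgc5 stood at 180.1, 150.3, 148, 141 and 132 CPM in WT SC, 153, 173, 116, 111 and 142 in WT NOX2, 172 and 149 in APP SC, and 118, 129, 169.7, 115 and 184 in APP NOX2. Every group overlapped every other, and APP NOX2 held both the highest library and 1 of the lowest. Its log2 change was 0.06 ± 0.111 (SE) by genotype and -0.13 ± 0.111 (SE) by inhibitor (edgeR adjusted p = 0.992 and 1.00).

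Pcdhac2 had 57.1, 70.0, 62.3, 58.3 and 55.4 CPM in WT SC, 64.0, 64.7, 48.0, 46.5 and 62.1 in WT NOX2, 65.6 and 63.2 in APP SC, and 48.1, 54.1, 73.0, 51.3 and 78.1 in APP NOX2. The same APP NOX2 libraries, replicates 3 and 5, were high for both genes and replicates 1, 2 and 4 low. The estimates of Pcdhac2 were 0.09 ± 0.104 (SE) by genotype and -0.08 ± 0.104 (SE) by inhibitor (edgeR adjusted p = 0.978 and 1.00). Pcdhgc3 had 96.3, 92.0, 82.8, 109.5 and 85.7 CPM in WT SC, 96.5, 103, 81.6, 89.7 and 86.5 in WT NOX2, 109 and 103 in APP SC, and 77.6, 103, 104, 79.0 and 109.6 in APP NOX2. It overlapped between groups as well, with estimates of 0.10 ± 0.084 (SE) by genotype and -0.08 ± 0.084 (SE) by inhibitor (edgeR adjusted p = 0.945 and 1.00).

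The other two C-types were lower. Pcdhgc4 averaged 23.0 CPM ± 2.29 (SD, n = 5) in WT SC, 21.9 ± 1.74 (n = 5) in WT NOX2, 23.2 ± 1.23 (n = 2) in APP SC and 22.4 ± 3.47 (n = 5) in APP NOX2. Pcdhac1 averaged 10.2 CPM ± 1.70, 10.6 ± 1.95, 10.4 ± 3.11 and 10.4 ± 1.65 in the same order. Their log2 changes by genotype were 0.02 for Pcdhgc4 and -0.01 for Pcdhac1, and by inhibitor -0.07 and 0.04, signs that single libraries could turn for Pcdhac1 in both comparisons and for Pcdhgc4 by genotype. None of the 5 C-types passed in any of the 7 comparisons (edgeR).

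High levels of Pcdhgc5 and Pcdhac2 mostly fell in libraries with high summed neuron markers. The 5 libraries highest for Pcdhgc5, at 169.7 CPM or more against 153 or less in the others, included 4 of the 5 highest for summed neuron markers, and the remaining one, APP NOX2 replicate 3, ranked 6 for them. For Pcdhac2 this was also 4 of 5, for Pcdhgc3 and Pcdhgc4 3 of 5, and for Pcdhac1 2 of 5. The 5 lowest libraries for Pcdhgc5 and for Pcdhac2 each included 4 of the 5 lowest for neuron markers. For Pcdhgc3, Pcdhgc4 and Pcdhac1 this was 2 of 5. Over the 56 members the median for the highest libraries was 2 of 5, and 11 members reached 4 or 5. These included beta and gamma A genes as well, and the beta gene Pcdhb2 reached 5. For summed endothelial markers the median was 1 and the highest 3. The libraries ranked 1, 2 and 3 for neuron markers were also the deepest. They were WT SC replicate 1, WT NOX2 replicate 2 and APP SC replicate 1, at 17862965, 15271804 and 16292707 counts. All were among the 5 highest for Pcdhgc5, together with APP NOX2 replicates 3 and 5, at 9535602 and 13660094 counts. Such sharing was not counted over all genes. Whether neuronal material or depth accounts for these levels was not tested.

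**Figure D5:**
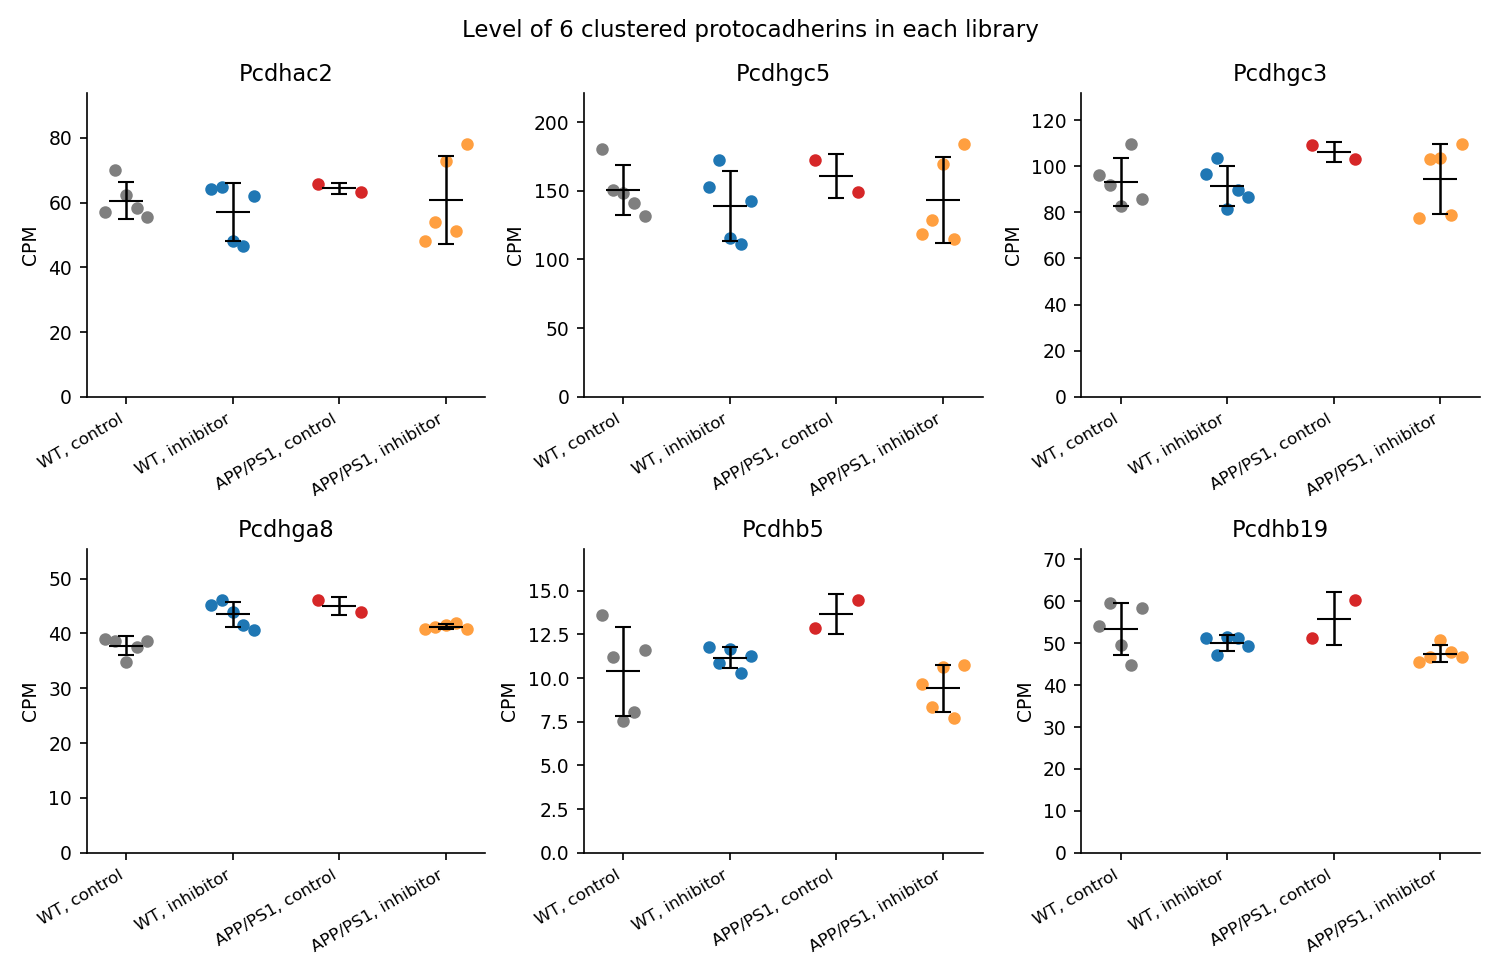
CPM of 6 members in each library by group; dots are libraries, the bar and whiskers the mean and SD. The C-type genes Pcdhac2, Pcdhgc5 and Pcdhgc3 overlap in all groups, Pcdhga8 is lowest in WT SC (34.7 to 38.9), and Pcdhb5 and Pcdhb19 are higher in APP SC than in APP NOX2.

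The remaining leading members of each cluster were examined in the same way. Pcdha12 averaged 17.9 CPM ± 1.83 (SD, n = 5) in WT SC, 17.4 ± 4.03 (n = 5) in WT NOX2, 17.7 ± 6.44 (n = 2) in APP SC and 17.2 ± 2.69 (n = 5) in APP NOX2. Pcdha11 (ENSMUSG00000102206) averaged 21.4 CPM ± 3.47, 21.9 ± 2.93, 26.0 ± 2.98 and 22.6 ± 3.94 in the same order. Among beta genes, Pcdhb14 averaged 55.0 CPM ± 9.46, 53.1 ± 5.34, 61.5 ± 5.72 and 53.6 ± 3.58, and Pcdhb16 45.4 ± 4.65, 42.0 ± 5.47, 44.8 ± 2.25 and 41.3 ± 2.47. Pcdhga12, the highest gamma gene by CPM after 2 C-types, averaged 62.8 CPM ± 9.89, 62.1 ± 8.05, 69.0 ± 4.81 and 63.2 ± 6.80. For each of these 5 genes every group overlapped every other, and none passed in any comparison (edgeR).

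Genes on lists related to the family were compared in the same fits. They comprised 12 nonclustered protocadherins, which are adhesion proteins encoded outside the clusters, 17 genes of promoter choice and chromatin such as Ctcf and Smchd1, 9 genes of proteolytic cleavage such as Adam10 and the gamma-secretase subunits, and 19 cytoplasmic and membrane partners. All 57 were tested, and in each of the 7 comparisons 0 passed in edgeR, 0 in DESeq2, and 0 had an unadjusted p under 0.05 in edgeR. For genotype over both peptides their median log2 change was 0.02, with 34 of 57 higher, and the smallest p was that of Aph1c, a gamma-secretase subunit gene, at -0.21 ± 0.11 (SE, edgeR adjusted p = 0.820). For the inhibitor over both genotypes the median was -0.05, with 38 of 57 lower, and the smallest p was that of Pcdh10, a nonclustered protocadherin, at -0.18 ± 0.10 (SE, edgeR adjusted p = 1.00). The nonclustered protocadherins alone had 10 of 12 estimates lower for the inhibitor over both genotypes, with a median of -0.10, close to the -0.11 of the beta cluster. Per length they spanned from 0.41 CPM per kb for Pcdh12, a gene known from endothelium, to 66.6 for Pcdh9, and Pcdh9, Pcdh1 at 56.8 and Pcdh7 at 33.4 lay above every clustered member by mean, the highest of which was Pcdhgc5 at 31.7.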

How the data were processed

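The authors deposited raw counts per Ensembl gene for each library; per the submitters' processing notes cutadapt, STAR, HTSeq and DESeq2 were used, with the builds mm10 and GRCh37 named, while versions, counting mode, strand setting and annotation are not given in the sources used here. Per the labels' protocols, microvessels were pelleted through dextran, and ribosomal RNA was depleted before stranded library preparation. A further 20 columns matched no sample and were not used. Symbols were taken from GENCODE vM21 (42250 identifiers matched, 437 did not), as were exon bases and gene order. RefSeq places Pcdha10 where ENSMUSG00000007440 lies, and the symbol of the annotation was kept. No sequence of a member was used here.

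Counts of 17 libraries were filtered with filterByExpr (18753 genes kept), scaled by TMM and tested with edgeR 4.0.16 (R 4.3.3) by the quasi-likelihood F test, two-sided, with Benjamini-Hochberg adjustment over all genes kept and a threshold of 0.05. An additive model gave genotype and inhibitor, and group means gave the other 5 of the 7 comparisons; all libraries entered each fit. Standard errors were computed from the log2 change and its F statistic, and intervals are 95%. The floor of 3 counts was 0.174 to 0.390 CPM over the libraries and covers counting error only. The scripts were tested on simulated data. Alternatives were DESeq2 1.42.0 (Wald test, and its size factors in edgeR), no filter, only the groups compared, each library left out, other scalings of the sums, and all exon bases as length.

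The members, gene lists and markers were chosen with earlier results of these data known. Members named were the 3 highest by CPM in each cluster, the C-types, and the member with the smallest p in each comparison, with any that passed. Replicates were numbered in sample order. All 136 pairs of libraries were compared and 0 were identical; chi-square per degree of freedom ran from 5.04 to 84.3 for pairs of the same group.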

Additional observations from a re-analysis of the deposited data

Results flagged for a closer look

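Each of the 57 combinations of a named member or cluster sum with a group of 5 libraries was examined for a library apart from the rest, by the gap to its neighbour over the range of the group, against a critical value of 0.71. There were 2 such libraries, where 2.85 are expected at 1 in 20. Pcdhga12 stood at 80.5 CPM in WT SC replicate 1 against 58.1 to 58.8 in the other libraries of the group (ratio 0.968). Pcdha11 (ENSMUSG00000102206) stood at 29.4 CPM in APP NOX2 replicate 1 against 20.1 to 22.5 (ratio 0.750). WT SC replicate 1 was the deepest library, with 17862965 counts, and ranked 1 for summed neuron markers.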

How the results depend on the processing

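The number of members past the threshold was 0 under every alternative run, in each of the 7 comparisons. Left-out libraries changed signs only of estimates near 0: log2 changes ranged from -0.094 to 0.067 for Pcdhac1 by genotype, -0.031 to 0.13 for Pcdhac1 by inhibitor, -0.019 to 0.068 for Pcdhgc4 by genotype and -0.0017 to 0.12 for Pcdhgc5 by genotype. The median over members changed sign for the inhibitor in WT without WT SC replicate 2 (0.02) or WT NOX2 replicate 5 (0.004), and reached -0.06 without WT NOX2 replicate 1 or WT SC replicate 4 and -0.07 without WT SC replicate 3; it was -0.003 without WT SC replicate 1, -0.04 without WT SC replicate 5, and -0.03 without WT NOX2 replicate 2 or APP NOX2 replicate 1 or 2. It changed sign for genotype with inhibitor without APP NOX2 replicate 3 (-0.02) or 5 (-0.005) or WT NOX2 replicate 3 (-0.0005) or 4 (-0.005), and was 0.0005 without WT NOX2 replicate 5, 0.03 without APP NOX2 replicate 2 and 0.05 without WT NOX2 replicate 1. For the inhibitor in APP/PS1 it stayed between -0.16 and -0.10 and for beta genes between -0.24 and -0.15; without either APP SC library, 22 beta genes passed the filter, 19 of them lower, with 1 library assumed to vary like the other groups. Leaving the abundant noncoding genes Gm26917 and Gm42418 out of total-count scaling raised cluster sums, in the order WT SC, WT NOX2, APP SC and APP NOX2, to 202, 195, 211 and 204 CPM for alpha, 556, 525.9, 580.4 and 515 for beta, and 1071, 1081, 1159 and 1100.1 for gamma; with plain total counts beta in APP SC was 514. Per kb of all exon bases, Pcdhgc5, Pcdhgc3, Pcdhac2, Pcdhgc4 and Pcdhac1 stood at 19.2, 17.2, 10.2, 4.03 and 1.92 CPM. With that length the highest gamma A gene, at 10.4, was above Pcdhac2. The median gamma A and gamma B genes, at 8.54 and 7.43, were then below the highest beta gene, at 8.72. No paired analysis was possible because the labels give no replicate numbers.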
